A study of Mus musculus with 14 samples.

Results

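Trimethylated lysine 4 of histone H3 (H3K4me3) is mostly found at transcription start sites (TSSs), and the regions described here are the H3K4me3 peaks that lay just outside this position. A peak was taken as promoter-flanking when its centre was over 1 kb and at most 3 kb from the nearest TSS of any annotated GENCODE transcript. Of 25357 peaks on chromosomes 1 to 19, X and Y, 2902 (11.4%) met this rule. The count depends on how the list divides the mark, since with peaks within 1 kb of each other merged first, 1056 regions met it, and among peaks of at least 500 bp 955 did. The centres of 17586 peaks (69.4%) were within 1 kb of a TSS, here called promoter peaks, and those of 4869 (19.2%) were beyond 3 kb. Each flanking peak was called upstream or downstream by the strand of its nearest TSS. It was then sorted by what held the TSS base itself, which was another peak, the flanking peak, or no peak.

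The peaks came from chromatin immunoprecipitation and sequencing (ChIP-seq) in immortalised mouse embryo fibroblasts, all grown from the single clone NG3. These cells carried floxed Ash2l alleles and a Cre-ER recombinase, exon 4 of the endogenous gene had been deleted in every group, and a lentiviral construct supplied human ASH2L fused to FKBP12F36V and 2 HA tags. The compound dTAG, which links the FKBP tag to a ubiquitin ligase, was used to degrade the fusion protein. Of the H3K4me3 libraries, 12 in number by the labels, 2 were of cells without dTAG and 2 each of cells exposed to it during 30 min, 2 h, 4 h, 8 h and 16 h, and there were 2 inputs, 1 without dTAG and 1 after 16 h. The peak list is a union over these libraries that gives positions and no value per sample, so the depth behind a peak could not be read from it, no replicate error could be computed, and the time points could not be compared. A second list from the same study gave 32965 putative enhancers, defined in control cells by H3K4me1, H3K27ac and accessible chromatin.

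All intervals are 95% intervals and cover counting error only, since peaks are not replicates of a condition. All 10 fibroblast markers examined, among them Col1a1, Vim and Pdgfra, had a TSS inside a peak. This was the case for 2 of 5 epithelial, 1 of 4 neural and 1 of 3 endothelial markers, and for 0 of 4 immune and 0 of 4 pluripotency markers.

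H3K4me3 is written by KMT2 methyltransferases, which act together with the core subunits WDR5, RBBP5, ASH2L and DPY30. The mark is strongest on the nucleosomes that follow an active TSS and is read by factors of the transcription machinery. It is commonly seen at CpG islands, stretches of DNA that keep a high density of CpG dinucleotides and hold many promoters. H3K4me1 without much H3K4me3 is the usual state of enhancers.

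The centres of flanking peaks mostly held fewer CpGs than those of the peaks on their TSSs, and the sequences are shown for this reason. The central 200 bases of the widest flanking peak of 5 classes are shown first, followed by 2 pairs of a flanking peak and the peak on its TSS, which were chosen after their values were seen. CpGs are in capitals, each sequence reads 5′ to 3′ on the strand of the nearest TSS, and the build is GRCm38.p6 (mm10). The first is Tbx15, downstream of a TSS held by another peak (chr3:99256576-99256775, plus strand, 7 CpGs).
Tbx15: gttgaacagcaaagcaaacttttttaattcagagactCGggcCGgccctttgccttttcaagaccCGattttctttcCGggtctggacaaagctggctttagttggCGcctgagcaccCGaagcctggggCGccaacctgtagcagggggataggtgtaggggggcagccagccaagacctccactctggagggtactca
The second is Arhgef17, downstream of a TSS that the flanking peak itself held (chr7:100929398-100929597, minus strand, 4 CpGs).
Arhgef17: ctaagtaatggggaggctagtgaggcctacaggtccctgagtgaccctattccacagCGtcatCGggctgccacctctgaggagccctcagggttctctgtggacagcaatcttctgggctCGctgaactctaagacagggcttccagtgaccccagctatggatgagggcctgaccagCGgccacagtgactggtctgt
Next is Zswim6, upstream of a TSS held by another peak (chr13:107891142-107891341, minus strand, 29 CpGs).
Zswim6: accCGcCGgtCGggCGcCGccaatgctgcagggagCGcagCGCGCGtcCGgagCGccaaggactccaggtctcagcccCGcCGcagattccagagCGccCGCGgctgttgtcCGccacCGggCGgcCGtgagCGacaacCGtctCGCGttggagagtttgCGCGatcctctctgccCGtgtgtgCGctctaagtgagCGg
It is followed by 2810430I11Rik, upstream of a TSS that the flanking peak itself held (chr2:27888287-27888486, minus strand, 4 CpGs).
2810430I11Rik: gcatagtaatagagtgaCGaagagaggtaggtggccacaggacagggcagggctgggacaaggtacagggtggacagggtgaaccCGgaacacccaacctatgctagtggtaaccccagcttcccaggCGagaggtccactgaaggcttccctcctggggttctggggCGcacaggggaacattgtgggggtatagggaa
The last of these is Gm43177, upstream of a TSS that no peak held (chr5:52114774-52114973, plus strand, 14 CpGs).
Gm43177: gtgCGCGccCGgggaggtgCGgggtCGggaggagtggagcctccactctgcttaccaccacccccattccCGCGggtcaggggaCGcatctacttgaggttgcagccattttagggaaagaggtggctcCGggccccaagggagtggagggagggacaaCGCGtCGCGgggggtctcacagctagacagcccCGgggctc
In the tropomyosin gene Tpm1 the centre of a downstream flanking peak of 870 bp (chr9:67042124-67042323, minus strand) held 3 CpGs, and the centre of the peak on the TSS (chr9:67043534-67043733) held 20.
Tpm1 flanking peak: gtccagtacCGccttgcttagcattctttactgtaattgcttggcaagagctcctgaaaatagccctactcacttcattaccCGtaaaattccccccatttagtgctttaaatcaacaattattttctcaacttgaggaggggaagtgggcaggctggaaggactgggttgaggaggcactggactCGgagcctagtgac
Tpm1 peak on the TSS: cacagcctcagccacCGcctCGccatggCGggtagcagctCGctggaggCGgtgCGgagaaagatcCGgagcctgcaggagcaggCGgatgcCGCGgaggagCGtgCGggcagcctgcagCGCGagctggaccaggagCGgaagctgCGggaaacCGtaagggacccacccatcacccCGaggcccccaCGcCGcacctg
In Wdr5, which encodes a core subunit of the KMT2 complexes, the downstream flanking peak was 205 bp wide and its centre (chr2:27516723-27516922, plus strand) held 1 CpG, against 23 at the centre of the peak on the TSS (chr2:27515355-27515554).
Wdr5 flanking peak: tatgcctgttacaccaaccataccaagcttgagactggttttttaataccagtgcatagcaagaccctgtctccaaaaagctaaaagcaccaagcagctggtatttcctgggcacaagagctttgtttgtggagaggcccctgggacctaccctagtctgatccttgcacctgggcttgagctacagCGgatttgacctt
Wdr5 peak on the TSS: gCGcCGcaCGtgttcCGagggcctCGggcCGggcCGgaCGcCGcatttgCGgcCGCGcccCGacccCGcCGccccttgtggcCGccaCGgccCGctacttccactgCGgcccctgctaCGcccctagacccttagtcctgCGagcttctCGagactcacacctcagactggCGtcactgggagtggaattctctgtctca

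Flanking peaks lay mostly inside the transcribed region. Downstream of the nearest TSS there were 2181 of 2902 (75.2%, Wilson interval 73.6 to 76.7%), and upstream of it there were 721. The genome offered nearly equal room on either side, since 128.2 Mb lay 1 to 3 kb downstream of their nearest TSS and 122.1 Mb lay upstream. Per Mb of this sequence there were 17 flanking peaks downstream and 5.90 upstream, a ratio of 2.88.

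This asymmetry was mainly that of TSSs inside a peak. Of the 132629 distinct TSS positions, 43010 were held by a peak. Beside these, 1696 flanking peaks were downstream and 333 upstream (83.6% downstream, Wilson interval 81.9 to 85.1%), or 86.2 and 20.9 per Mb, a ratio of 4.13. These counts include 160 downstream and 11 upstream members that held the TSS themselves. Beside TSSs that no peak held, 485 were downstream and 388 upstream (55.6%, 52.2 to 58.8%), or 4.47 and 3.66 per Mb, a ratio of 1.22. Among all 200 bp windows of the genome that met the distance rule, a peak touched 13.0% of those downstream and 2.67% of those upstream of a held TSS, and 0.384% and 0.283% beside TSSs that were not held.

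The density fell with distance on both sides, and faster downstream. It was 33.7 peaks per Mb at 1000 to 1250 bp downstream and 9.55 upstream, and at 2750 to 3000 bp it was 6.2 and 4.15. Just outside the inner limit of the rule, the 410 peaks centred 900 to 1000 bp from a TSS had a median width of 402.5 bp, and just inside it the 332 centred at 1000 to 1100 bp had one of 393 bp. At the outer limit, 71 peaks centred at 2900 to 3000 bp had a median width of 457 bp and 60 centred at 3000 to 3100 bp one of 377 bp.

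**Figure D1:**
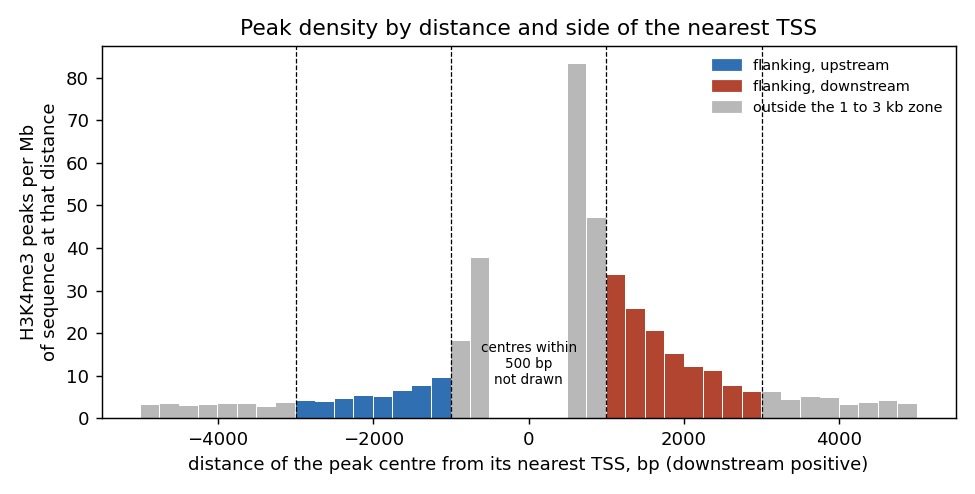
Number of H3K4me3 peaks per Mb of sequence (y axis) in bins of 250 bp by the distance of the peak centre from its nearest TSS (x axis, bp, downstream positive). At 1000 to 1250 bp the density was 33.7 per Mb downstream against 9.55 upstream, and at 2750 to 3000 bp the values were 6.2 and 4.15.

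For most flanking peaks the nearest TSS lay inside another peak. This was the case for 1536 of 2181 downstream members (70.4%, 68.5 to 72.3%) and for 322 of 721 upstream members (44.7%, 41.1 to 48.3%). The difference was 25.8 percentage points (Newcombe interval 21.6 to 29.8). It depended on the annotation, since with 1 TSS per gene the shares were 52.5% downstream and 53.3% upstream. In a further 160 downstream members (7.34%) and 11 upstream members (1.53%) the flanking peak was wide enough to hold the TSS itself. No peak held the TSS of 485 downstream (22.2%) and 388 upstream members (53.8%). Of these 873 peaks, 209 (23.9%) still had another peak within 500 bp of the TSS, so a peak that missed the annotated base by a short distance was counted here as absent.

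Upstream, the share with the TSS in another peak was lower in each band farther from the TSS. Another peak held the TSS of 50.9% of the 289 upstream members at 1 to 1.5 kb, 43.8% of the 178 at 1.5 to 2 kb, 39.6% of the 144 at 2 to 2.5 kb and 36.4% of the 110 at 2.5 to 3 kb. Downstream the shares of the same bands were 69.3% of 1038, 75.3% of 584, 69.6% of 358 and 63.7% of 201, so that even the farthest downstream band was above the nearest upstream band.

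**Figure D2:**
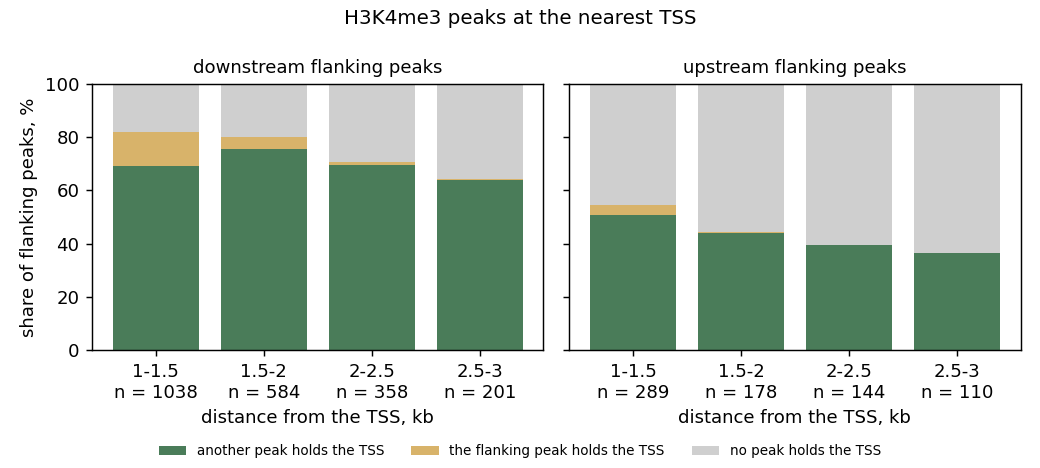
Share of flanking peaks (y axis, %) in 4 bands of distance from the nearest TSS (x axis, kb), downstream in the left and upstream in the right panel, by whether another peak, the flanking peak itself or no peak held the TSS. Another peak held it for 69.3% of downstream and 50.9% of upstream members at 1 to 1.5 kb, and for 63.7% and 36.4% at 2.5 to 3 kb.

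The flanking peaks were narrow. Their median width was 354 bp (interval from order statistics 343 to 365 bp), the quartiles were 247 and 622.75 bp, and single widths ran from 200 to 7417 bp. After peaks within 1 kb were merged, the median width of the flanking regions was 675.5 bp, and among peaks of at least 500 bp it was 836 bp. Promoter peaks had a median of 951.5 bp and peaks beyond 3 kb one of 257 bp. Downstream members were 329.5 bp wide in the median where another peak held the TSS and 353 bp where none did. The corresponding upstream medians were 382 and 315 bp. Members that reached over the TSS had to be wide by the rule, and their median was 2744 bp downstream (n = 160) and 2993 bp upstream (n = 11).

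Where another peak held the TSS, downstream members lay closer to it than upstream members. The gap between both peaks had a median of 283 bp (265 to 304 bp) downstream and 750 bp (670 to 920 bp) upstream. It was at most 500 bp in 67.7% of these 1536 downstream and 36% of these 322 upstream members. No further peak lay in between for 83.2% and 68.9%, respectively. The peak on the TSS reached farther into the gene than away from it in both cases. Beside downstream members its edges were at a median of 940 bp downstream and 380 bp upstream of the TSS, and beside upstream members at 1073 and 510.5 bp. Peaks that held a TSS with a downstream member were 1384 bp wide in the median (n = 1343), those with an upstream member 1682.5 bp (n = 274), and the 11681 with neither 1136 bp.

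Downstream members with the TSS in another peak were chiefly intronic. The centre was in an intron for 85.9% of them, and in the first intron of the transcript that starts at the nearest TSS for 1243 of 1536 (80.9%). The positions available there were much the same, since 82.3% of the 200 bp windows 1 to 3 kb downstream of a TSS held by any peak were intronic. Downstream members whose TSS no peak held had their centre in the first intron in 41.6% and past the end of the transcript in 26.8% of 485. Upstream members with the TSS in another peak were 37.6% intronic and 52.5% intergenic, against 24.7% and 69.6% of the windows on that side. Their TSS was the outermost of its gene in 90.4%, close to the 89.8% of windows, whereas the TSS of the downstream members was the outermost in 19.5% (windows 22.2%).

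The genes differed by side in their kind. Where another peak held the TSS, 95.9% of downstream members belonged to protein-coding genes and 3.06% to long noncoding genes, and of the upstream members 71.4% and 27%. Of promoter peaks, 88.9% belonged to protein-coding and 8.65% to long noncoding genes. The kind of gene was not counted for the windows on each side, so the part of the annotation in this difference was not tested. Without a held TSS on either side, 61.5% of 873 belonged to protein-coding genes, 20.2% to long noncoding genes and 11.1% to pseudogenes. A TSS of the opposite strand, within 3 kb of the member's centre and on its side away from the member's TSS, was found for 5.28% of the upstream members with the TSS in another peak. Opposite-strand TSSs between a member's centre and its TSS were not counted.

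CpG content fell off between the TSS and the flanking peaks. The central 200 bases of flanking peaks held a median of 3 CpGs (GC content 50.0%). The median was 11 in promoter peaks (59%), 3 in peaks beyond 3 kb (50.5%) and 1 in all windows that met the distance rule (43.5%). In windows beside held TSSs it was 2 on either side (44.5%). In direct comparison, 1402 of 1536 downstream members (91.3%, Wilson interval 89.8 to 92.6%) had fewer CpGs at their centre than the peak on their TSS, with medians of 3 and 14. Upstream this was 263 of 322 (81.7%, 77.1 to 85.5%), with medians of 4.5 and 14. The sequences of Tpm1 (3 against 20 CpGs) and Wdr5 (1 against 23) printed above are such pairs. The upstream member of Zswim6, with 29 CpGs, is at the other end of the range of flanking peaks, which went up to 38. Windows were not paired with the peak on their TSS, so the part of position in the paired shares was not tested.

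Where another peak held the TSS, few downstream members overlapped a CpG island. An island was overlapped by 16.3% of flanking peaks, against 73.9% of promoter peaks and 11% of peaks beyond 3 kb. Of downstream members whose TSS another peak held, 55 of 1536 (3.58%) overlapped an island, although the TSS was in an island for 76.8% of them. Of upstream members of this kind, 17.7% overlapped an island and 69.3% of the TSSs were in one. The upstream share was higher by 14.1 percentage points (Newcombe interval 10.2 to 18.7). Over a central window as long as the background windows, 2.60% of these downstream and 12.4% of these upstream members overlapped an island. Of the windows beside held TSSs, 1.52% downstream and 0.581% upstream did. The TSS was in an island for 71.4% and 70.5% of these windows. The part of position in the island shares was not tested. Where no peak held the TSS, 27% of downstream and 20.9% of upstream members overlapped an island. Of the wide members that held the TSS, 86.9% of the downstream ones did. With 1 TSS per gene, the share of downstream members with the TSS in another peak that overlapped an island was 12%, against 18.9% upstream. For all flanking peaks the island share was 29.3% with 1 TSS per gene, 39.6% among peaks of at least 500 bp, 9.71% with distances from the nearest base and 10.4% with a stricter definition of islands.

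Overlap with putative enhancers showed another order. An enhancer was overlapped by 498 of 2902 flanking peaks (17.2%), by 5.02% of promoter peaks and by 25.5% of peaks beyond 3 kb. The list of enhancers left out regions within 1 kb of TSSs, which lowers the share of promoter peaks by construction. It can also lower the share of flanking peaks near the 1 kb limit, which was not tested. The downstream share was 12.8% at 1 to 1.5 kb and 20.4% at 2.5 to 3 kb. Upstream it was 25.3% and 31.8% in these bands. Among the flanking classes of over 100 members, downstream members with the TSS in another peak had the lowest share, 9.90%. The others had 24.7% (downstream, no peak on the TSS), 24.4% (downstream, holding the TSS), 25.5% (upstream, TSS in another peak) and 26.3% (upstream, no peak on the TSS). With the TSS in another peak, the upstream share exceeded the downstream share by 15.6 percentage points (10.8 to 20.8). Within downstream members, those without a peak on the TSS exceeded those with one by 14.8 points (10.9 to 19.1). Within upstream members the corresponding difference was 0.823 points, with an interval of -5.69 to 7.22. Of the 200 bp windows that met the distance rule, 1.00% overlapped an enhancer, against 16.4% of flanking peaks by their central 200 bases. Beside held TSSs the window shares were 1.46% downstream and 0.966% upstream. With the TSS in another peak, 9.38% of downstream and 23.9% of upstream members overlapped an enhancer by their central 200 bases. The class of downstream members with the TSS in another peak also had the lowest share under the 4 alternatives for which classes were computed, whereas the order of the other classes changed. With 1 TSS per gene its share was 9.31%, against 12.5% of downstream members with no peak on the TSS, and the upstream shares were 18.3% and 24.4%. With peaks of at least 500 bp the downstream shares were 21.5% and 37.7% and the upstream shares 37.4% and 39%, and 29.1% of all flanking peaks overlapped an enhancer. Downstream members that held the TSS were not computed under the alternatives.

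**Figure D3:**
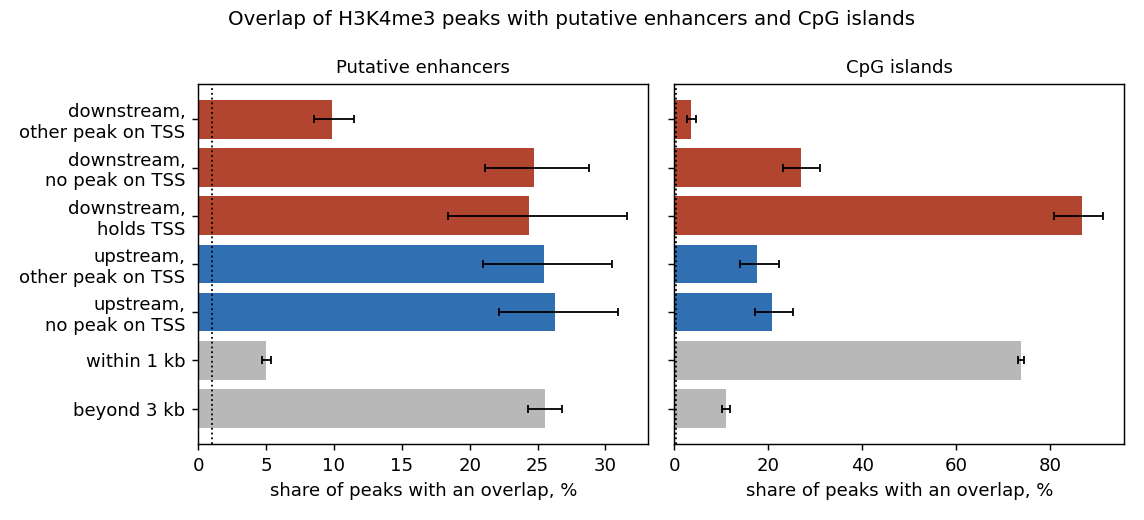
Share of peaks (x axes, %) that overlap a putative enhancer (left) or a CpG island (right), for promoter peaks, the flanking classes by side and state of the TSS, and peaks beyond 3 kb, with Wilson intervals as bars and the share of all 200 bp windows meeting the distance rule as a dotted line. Downstream members with the TSS in another peak were low in both, with 9.90% and 3.58%. Overlap was counted over the whole width of each peak, whereas the dotted line is for windows of 200 bp.

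Seen from the enhancers, those beside a promoter with H3K4me3 often coincided with a flanking peak. Of the putative enhancers centred 1 to 3 kb downstream of a held TSS, 161 of 320 (50.3%) overlapped a flanking peak, and upstream 76 of 229 (33.2%) did. Where the TSS was not held, 107 of 1448 downstream (7.39%) and 90 of 1420 upstream (6.34%) did. Peaks were also denser beside held TSSs. A peak of any class touched 13.0% of the 200 bp windows downstream and 2.67% upstream of held TSSs, and 0.384% and 0.283% beside TSSs not held. Enhancers were not matched to the windows in length, and the part of peak density in these shares was not tested.

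Short motifs were counted on both strands of the central 200 bases. GGGCGG, the core of the Sp/KLF box, was found in 10.1% of flanking peaks, 32.2% of promoter peaks, 10.1% of peaks beyond 3 kb and 2.26% of all windows that met the distance rule. It was in 4.75% of downstream and 15.2% of upstream members with the TSS in another peak, against 3.52% and 2.83% of the windows on these sides of held TSSs. CCGGAAG, an ETS motif, was found in 1.62% of flanking peaks and 0.625% of windows, and TATAAA in 7.0% and 16.7%. For the remaining motifs the shares of flanking peaks and windows were, for TGANTCA (AP-1), 5.75% against 5.87%, for GGAATG (TEAD) 10.8% against 10.7%, for CACGTG (E-box) 2.89% against 2.18% and for TGACGTCA (CRE) 0.172% against 0.102%. CCAAT was found in 19.5% of flanking peaks and 26.8% of windows. None of these motifs contains another. The median GC content of the central 200 bases was 50.0% in flanking peaks and 43.5% in all windows. The part of base composition in the motif shares was not tested.

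Most TSSs with flanking peaks had a single one. The 2902 members belonged to 2555 TSSs, of which 2242 had 1 member, 284 had 2 and 29 had 3 or more, and 26 had members on both sides. Members beside the same TSS or gene are therefore not independent of each other. By gene, 2073 had 1 member, 323 had 2, 41 had 3, 11 had 4, 1 had 5 and 2 had 6. The share of peaks that were flanking ranged from 9.67% on chromosome 18 to 14% on chromosome 3, with 0 of 3 on chromosome Y, and the downstream share from 66.7% on chromosome 12 to 84.8% on chromosome 16.

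The genes with the most members were Tpm1 and Gm43120. In Tpm1, which encodes an actin-binding tropomyosin, 5 of 6 flanking peaks were beside a TSS in another peak and the sixth, of 2495 bp, held its own TSS. The 6 members of Gm43120, an annotated gene next to Tbx15, were 200 to 424 bp wide and all belonged to a single TSS, in a peak of 760 bp. Tbx15, a T-box transcription factor of mesenchymal development, had 5 members, of which the widest, with 3930 bp (chr3:99254711-99258640), began 100 bp after a peak of 1233 bp that held the TSS. The 11 members of these adjacent genes lay within chr3:99241999-99263885.

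Among the 11 genes with 4 members, the arrangement differed. In Foxp1, a forkhead transcription factor, the 4 members of 311 to 487 bp were all downstream of different TSSs, 3 overlapped an enhancer and 3 had a TSS in another peak. In Frs2, an adaptor of fibroblast growth factor receptors, a peak of 1503 bp over the TSSs had 2 members on either side. Arid5b, a DNA-binding protein of the ARID family, had 3 of 4 members downstream. Nfil3, a basic leucine zipper repressor, had 2 on each side of a peak of 1292 bp. In Trim59, a tripartite motif protein, 3 members of 235 to 256 bp followed the peak on the TSS and 1 of 215 bp preceded it. Hoxa10, a homeobox gene of limb and uterus development, had 2 upstream and 2 downstream members. Ctnnd1 (p120 catenin), Bcar1 (an adhesion adaptor), Tnks1bp1, Col1a1 and Ash2l completed the group. In Col1a1, the gene of a type I collagen chain, all 4 members of 207 to 392 bp lay beside TSSs that no peak held. Beside the TSS of the 2 upstream members, another peak began 2 bp past that base.

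**Figure D4:**
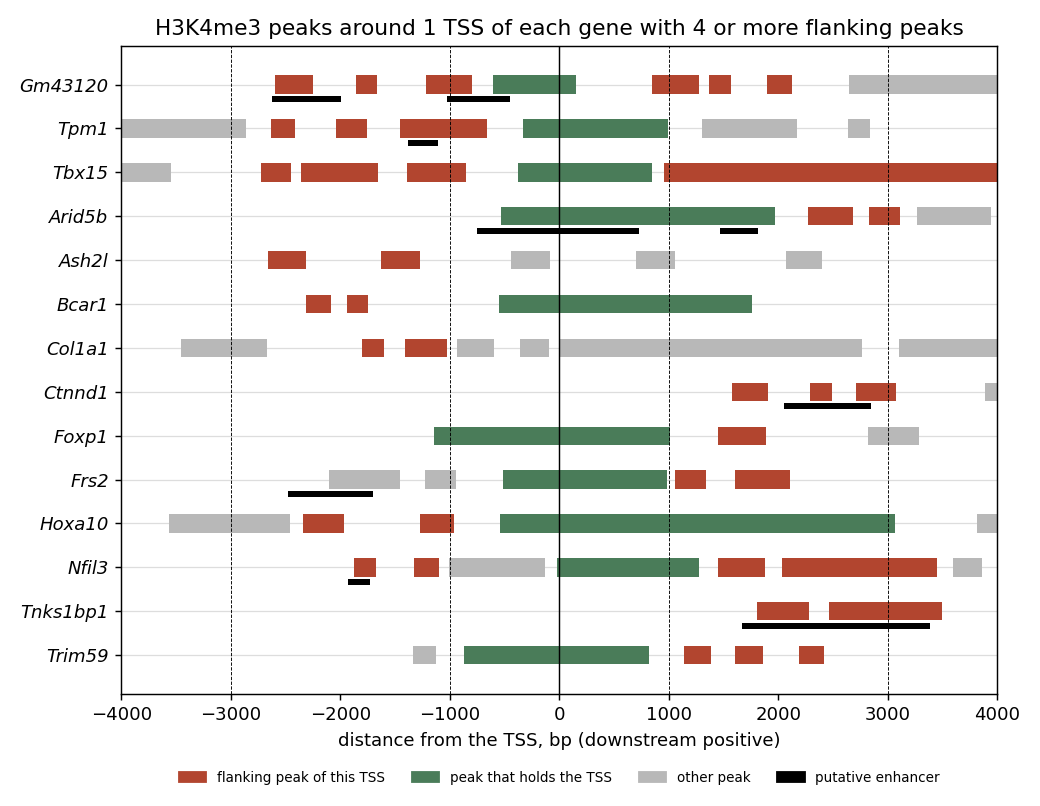
H3K4me3 peaks around 1 TSS of each gene with at least 4 flanking peaks (rows), by distance from that TSS (x axis, bp, downstream positive), with the flanking peaks of that TSS, the peak that holds it, other peaks and putative enhancers in different colours. For Gm43120 all 6 members lay around the TSS shown, 3 on each side of a peak of 760 bp, and for Nfil3 there were 2 on each side.

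Among downstream members that held the TSS, the widest were at Arhgef17, a guanine nucleotide exchange factor, with 7417 bp (chr7:100925790-100933206), Nrp2, a semaphorin receptor, with 5363 bp, and Ajuba, a LIM protein, with 5061 bp. Downstream members without a held TSS were wide at Elmsan1, with 3524 bp (chr12:84190460-84193983), and at Lmna (lamin A/C), with 3240 bp. In both genes the peak began just past the annotated TSS. For Elmsan1, on the minus strand, the TSS was at position 84194015 and the peak ended at 84193983, and altogether 13 of 485 such members (2.68%) had their edge within 50 bp of the TSS. With the TSS in another peak, Slc35e4 (3914 bp) and the noncoding Lncpint (2257 bp) followed Tbx15.

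Upstream, several of the widest members were at noncoding or provisional transcripts. The peaks that held the TSS were at 2810430I11Rik (6056 bp), Gm47205 (5288 bp) and Gm48008 (4327 bp). Those with no peak on the TSS were at Gm43177 (3021 bp), Tnrc18 (2373 bp) and Mir193b (2173 bp), the last of which overlapped an enhancer and an island. With the TSS in another peak they were at Zswim6 (1890 bp, 182 bp from a peak of 2894 bp), Gm37376 (1872 bp) and Git1, a GTPase-activating protein for Arf, with 1866 bp.

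Of 12168 protein-coding genes with a TSS in a peak, 14.2% had a flanking peak at any of their TSSs, 12.3% downstream and 2.61% upstream. Against this background the share was counted in lists of genes. Genes with a flanking peak were longer, with a median of 35.9 kb against 25.1 kb, and both groups had a median of 5 TSSs. The part of gene length and number of TSSs in the shares that follow was not tested.

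Transcription factors of the fibroblast and mesenchymal lineage had flanking peaks at 14 of 26 genes with a held TSS (53.8%, Wilson interval 35.5 to 71.2%), downstream at 11 and upstream at 5. The median length of the 26 genes was 69.8 kb. The zinc finger factor Snai1, of the epithelial to mesenchymal transition, had a member of 4293 bp (chr2:167538176-167542468) that held its TSS, Nfix one of 4154 bp (chr8:84770179-84774332) and the homeobox gene Prrx1 one of 3018 bp. In the related Snai2 there were instead 2 narrow members of 224 and 286 bp behind a peak of 2361 bp. In Twist1, a helix-loop-helix factor of mesoderm, a member of 271 bp (chr12:33959909-33960179) lay 374 bp behind a peak of 2909 bp. Runx2, of bone formation, had an upstream member of 1462 bp (chr17:44737096-44738557) that overlapped an enhancer.

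Immediate early genes, which respond to growth factors within minutes, had flanking peaks at 13 of 21 genes (61.9%, 40.9 to 79.2%). The median length of the 21 genes was 5.41 kb and their median number of TSSs 3. Of the 16 members in the list, 1 at Ier5 had no TSS of its gene in a peak. Those of Fosl2 (4030 bp, chr5:32135883-32139912), Ier2 (2975 bp), Btg2 (2563 bp), Klf6 (2443 bp) and Klf2 (2107 bp) held the TSS. At Myc, the cell growth regulator, a member of 1274 bp (chr15:61988755-61990028) followed a peak of 4380 bp after a gap of 253 bp. Nr4a3, an orphan nuclear receptor, and Egr3 had upstream members of 1402 and 1622 bp. In Egr1, one of the genes that the study followed, the member was 201 bp wide (chr18:34863423-34863623) and lay 50 bp behind a peak of 3380 bp.

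TGFβ and BMP signalling, which controls matrix synthesis in fibroblasts, was represented at 13 of 24 genes (54.2%, 35.1 to 72.1%). Among ligands, Tgfb2 had a downstream member of 837 bp (chr1:186702329-186703165) that overlapped an enhancer, and Inhba one of 2750 bp. Of the receptors, Acvr1 had a member of 742 bp. Among the signal transducers, Smad3 had a member of 999 bp (chr9:63754789-63755787), 96 bp behind a peak of 2957 bp, and Smad4 one of 295 bp. Among inhibitors, members of Smad6 (4510 bp, chr9:64017567-64022076) and Ski (4145 bp) held the TSS, and each of these genes had a second, narrow upstream member of 216 and 263 bp. The secreted inhibitor Fst had 2 upstream members, of 563 and 729 bp. Of the target genes Id1, Id2 and Id3, the first 2 had upstream members, of 346 bp at Id1 and of 1062 and 1094 bp at Id2, and Id3 had a downstream member of 248 bp.

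In the list of extracellular matrix genes, 9 of 24 had a flanking peak (37.5%, 21.2 to 57.3%). At Col6a3 (3765 bp, chr1:90840551-90844315), Fbln2 (2867 bp), Sparc (2609 bp) and Loxl1 (2380 bp), which encode matrix proteins or a collagen crosslinker, the member held the TSS. In Loxl1 a second member of 1123 bp began 94 bp behind the first. In Col4a1, a basement membrane collagen, 2 members of 436 and 692 bp followed a peak of 3269 bp. At Thbs1, which encodes the matrix glycoprotein thrombospondin, all 3 members, of 341 to 1264 bp, overlapped a coding exon, and no TSS of the gene was in a peak. Homeobox and patterning genes had members at 6 of 16 (37.5%, 18.5 to 61.4%), upstream at 4 of them. The upstream member of Hoxd10 was the widest, with 1458 bp. Hoxa5 had a member of 910 bp but no TSS in a peak.

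Other lists were close to the background. Replication and cell cycle genes had a member at 4 of 31 (12.9%, 5.13 to 28.9%). These were Ccnd1 and Ccnd2 (D-type cyclins) with 2 upstream members each, Ccnb1 (cyclin B1) with a member of 441 bp, and Cdk1 with one of 2171 bp that held the TSS. Respiratory chain genes had a member at 3 of 26 (11.5%, 4.00 to 29.0%), namely Ndufv2, Sdhd and Cox5a, each with a narrow downstream member of 237, 409 and 222 bp.

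Of the genes for H3K4 methylation and its removal, 5 of 19 had a flanking peak (26.3%, 11.8 to 48.8%). The methyltransferase Kmt2b had a downstream member of 276 bp (chr7:30587147-30587422), the core subunit Wdr5 the one of 205 bp printed above, Wdr82, a subunit of the SET1 complexes, one of 390 bp, and the demethylase Kdm5b an upstream member of 229 bp. The fifth gene was Ash2l. Its 4 members were of similar width, 335 to 359 bp, and lay beside internal TSSs that no peak held.

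All 4 members of Ash2l lay on coding exons, and they were part of a series of peaks over the exons of the whole gene. Of the 16 exons of its protein-coding transcript with the longest coding sequence, 14 overlapped a peak, and each of the 12 peaks over the gene overlapped an exon. The members held exon 4 (chr8:25835855-25836202, exon at 25836000 to 25836088), exon 5 (chr8:25834814-25835172), exon 8 (chr8:25831146-25831480) and most of exon 10 (chr8:25827035-25827373). Their centres were 15.5, 14, 2.5 and 78.5 bp from the centre of the exon. Ash2l had more members over coding exons than any other gene. Of the 2003 genes with coding exons and a member, 346 had 1 member over a coding exon, 14 had 2, Thbs1 had 3 and Ash2l had 4. How many members per gene would lie over coding exons by position alone was not tested. The cells carried the coding sequence of human ASH2L as a transgene, and exon 4 of the endogenous gene had been deleted. The part of reads from the transgene in these peaks was not tested, and the study's exon number was not compared with that of the annotation. Without the Ash2l members there were 2898 flanking peaks, 75.2% of them downstream, and 4 of 18 genes of the list had one.

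Of 6 genes that the study followed and that had a TSS in a peak, 3 had flanking peaks, namely Ash2l, Egr1 and Rspo2, which encodes a secreted Wnt agonist. The member of Rspo2 was 386 bp wide (chr15:43167680-43168065), 356 bp behind a peak of 2805 bp. Zfp503, a zinc finger repressor with no TSS in a peak, had one of 2845 bp (chr14:21985555-21988399) that overlapped an enhancer and an island. Of the 10 fibroblast markers, 5 had at least 1 flanking peak (50.0%, 23.7 to 76.3%), namely Col1a1, Vim, Pdgfrb, Prrx1 and Twist1. Among the markers of other cell types with a held TSS, it was 0 of 2 epithelial (upper limit 65.8%), 0 of 1 neural and 0 of 1 endothelial markers (79.3% each). With a background of 14.2%, these counts are too small to show a difference from the fibroblast markers.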

How the data were processed

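The deposited lists hold positions only. The authors used Trim Galore for trimming, BWA for alignment to mm10 (GRCm38.p6), samtools for filtering and Picard for pooling replicates. MACS was used to call H3K4me3 peaks in its narrow mode, and the peaks were joined into 1 union list. Their tool versions are not given in the sources used here. The authors kept as putative enhancers those regions with H3K4me1, H3K27ac and accessible chromatin in control samples that did not overlap 1 kb on either side of known TSSs. There were 0 columns of values per sample, so a weak peak and a strong peak, or a peak present in 1 group only, cannot be told apart. For the same reason no replicate error can be computed from the list.

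Starts in the peak list were taken to count from 0 and those of the enhancer list from 1. The 74 peaks outside chromosomes 1 to 19, X and Y were left out. Distances ran from the peak centre to the nearest TSS of any transcript of GENCODE release M21, which may differ from the set the authors used. As background, all 200 bp windows whose centre met the same rule (1251152) were examined. CpG islands (16936) were called on repeat-masked sequence with a score of 17 per CpG and -1 per other base, a length over 200 bp, GC over 50% and an observed to expected CpG ratio over 0.6. Sequences were read from the GRCm38.p6 reference. Shares have Wilson intervals, differences Newcombe intervals and medians order-statistic intervals. No p-value was computed. The steps tested on simulated data were distance, side, state of the TSS, distance from the nearest base, overlap, available bases and island calling. Other steps, such as intervals, motif counts and gene lists, were not tested in this way. The software was Matplotlib 3.10.9, Numba 0.67.0, SciPy 1.17.1, pandas 2.3.3 and NumPy 2.4.6 under Python 3.11.15.

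Named genes were those of the 3 widest members in each class of side and TSS state, those with the most members, members of the gene lists and genes that the study followed. Of the genes this rule gives, 1 is not reported here. The classes, lists and tests were chosen with earlier results of these data known. Alternatives were other TSS sets, distance from the nearest base, a minimum width, merged peaks, other overlap rules, stricter islands, and leaving out chromosomes 15 or X and Y.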

Additional observations from a re-analysis of the deposited data

How the results depend on the processing

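Downstream members were the majority in all 7 settings in which the side was counted (73.6 to 81.4%). Among these were leaving out chromosome 15 and leaving out chromosomes X and Y, the latter added after seeing the data. The side was not counted after merging peaks within 1 kb. With the TSS in another peak, the gap to that peak was at most 1000 bp for 88.7% of downstream and 60.2% of upstream members. Of 36 values under alternatives, 14 stayed within the interval or range and 22 moved. With TSSs of protein-coding transcripts only, 81.4% were downstream, 69.9% had the TSS in another peak, the median width was 379 bp, 14.3% overlapped an enhancer and 20.1% an island. With 1 TSS per gene, the last 4 were 52.7%, 424 bp, 13.9% and 29.3%. With the distance from the nearest base, 67% had the TSS in another peak, the median width was 320 bp and 9.71% overlapped an island. With peaks of at least 500 bp, 955 were left, 51.4% had the TSS in another peak, the median width was 836 bp, 29.1% overlapped an enhancer and 39.6% an island. Fewer peaks enter here by construction. Counting any other peak within 500 bp of the TSS gave 73.7%, asking for 50% of the bases gave 14.6% in enhancers, and stricter islands gave 10.4%. Merging peaks within 1 kb left 1056 flanking regions with a median width of 675.5 bp. The cause of the other shifts was not tested.

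Positions carry no sample. No paired analysis was possible because values per sample were not part of either list, and for the same reason leaving out a replicate was not run. The depth behind each peak is not in the lists, so the absence of a peak says only that none was listed there. The union does not show in which samples a peak was called, and the state of a TSS depends on the annotated base.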

Other observations

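Coding exons were overlapped by at least 1 flanking peak in 362 of the 2003 genes with coding exons and a member. Beside Ash2l (4 members) and Thbs1 (3), 2 members each overlapped a coding exon in 14 genes. Among these, both members held a whole coding exon in Acta2, which encodes smooth muscle actin, in Cst3 (cystatin C) and in Hnrnpa1, an RNA-binding protein. These genes were chosen after their values were seen, and no cause was tested.

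Repeat sequence made up a median of 10.5% of the central 200 bases of flanking peaks, against 0% in promoter peaks, 9.50% in peaks beyond 3 kb and 20.5% in all windows that met the distance rule. Peaks of the shortest width in the list, 200 bp, made up 7.10% of flanking peaks, 1.43% of promoter peaks and 19.1% of peaks beyond 3 kb.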
